A study of Mus musculus with 35 samples.

Results

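Claudins are membrane proteins of the tight junction, the seal between neighbouring epithelial cells that sets which ions and solutes pass between them. Some claudins, such as claudin-2 and claudin-15, are known to form pores for small cations, and others tighten the seal. The levels of 8 such genes were followed here in single cells of the mouse small intestine and of intestinal organoids: the pore-forming claudins Cldn2 and Cldn15, the claudins Cldn3, Cldn4, Cldn7 and Cldn23, occludin (Ocln), which is a second kind of tight junction membrane protein, and Tjp1, which encodes the scaffold ZO-1 that links these proteins to actin. The genes were chosen by name, and all 8 were found among the 23538 genes of the count tables.

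In the small intestine, stem cells at the crypt base renew the epithelium, and their progeny move up the villus as absorptive enterocytes or become secretory goblet, Paneth, enteroendocrine and tuft cells. Claudins are known to differ along this axis, with claudin-2 described in crypts and claudin-15 along crypt and villus.

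Single cells had been sorted into 96-well plates and sequenced by CEL-seq, which tags the 3′ end of each transcript. All mice were C57BL/6, and no age was used here. The Reg4-positive organoid cells (2 replicates) came from an organoid culture of a mouse with dsRed knocked into Reg4, a gene of secretory cells. The Lgr5-positive organoid cells (1 replicate) came from the culture of an Lgr5-GFP-DTR mouse, where Lgr5 marks stem cells. The whole organoid cells (2 replicates) were unselected cells of a wild-type culture. Each of these 3 cultures was started from the crypts of 1 mouse and grown with EGF, R-spondin 1 and Noggin, and replicates were passages of that culture, so p-values measure the spread between passages and not between animals, and genotype, mouse and sort cannot be told apart between cultures. The YFP-positive cells (5 plates) were taken straight from the intestine of Lgr5-Cre mice, whose Rosa26 YFP reporter has a loxP-flanked stop, 5 days after labelling was induced, so they are descendants of Lgr5-positive cells together with Lgr5-positive cells themselves. The Lgr5-EGFP cells (2 plates) were sorted from the intestine by EGFP under Lgr5, and the sources used here do not say whether plates of either kind came from different mice. The table of YFP cells holds 48 wells of plate 4 and 96 of each other plate.

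Wells with at least 1500 transcripts were kept, 1209 of 1680, and their counts were summed per replicate, which gave 287001 to 2860636 transcripts a replicate. Levels are counts of a gene per 1000000 counts of its replicate (CPM), after scaling of the replicates by the trimmed mean of M values. A summed level cannot tell fewer cells of a type from less RNA per cell. Lgr5 was 82.7 to 193 CPM in Reg4-positive, 245 CPM in Lgr5-positive and 29.9 to 63.4 CPM in whole organoid cells, and 48.2 to 94.4 CPM in YFP and 112 to 147 CPM in Lgr5-EGFP cells. Epcam, which all gut epithelial cells make, was 555 to 1642 CPM in all 12 replicates, while the leukocyte gene Ptprc had 0 to 2 counts and the fibroblast gene Col1a1 0 to 3 counts in each group. In Reg4-positive replicate 2, 3 wells of more than 100000 transcripts held 49.3% of all counts, and results that rest on this replicate are also given without them.

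In the GRCm38 assembly (GENCODE annotation), 3 of the 8 genes lie on chromosome 5. Cldn4 is a single-exon gene on the minus strand at chr5:134945119-134946934, and the single-exon gene Cldn3 stands 39279 bases away on the plus strand at chr5:134986214-134987472. Cldn15 has 5 exons at chr5:136966616-136975858. The others lie apart, with Cldn2 at chrX:139800828-139811386 (2 exons), Cldn7 at chr11:69964779-69967885 (4 exons), Cldn23 at chr8:35824712-35826559 (1 exon), Ocln at chr13:100496507-100552718 (9 exons) and Tjp1 at chr7:65296165-65527781 (27 exons). Cldn3 overlaps the antisense gene Wbscr25 by 40 bases, and Wbscr25 had 28 counts in all replicates together.

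The promoters of Cldn2 and Cldn15 are shown because these 2 pore-forming claudins moved in opposite directions between crypt and enterocyte wells. Each run holds 250 bases before and 50 bases after a RefSeq transcript start, on the plus strand (GRCm38.p6, chrX:139800558-139800857 and chr5:136967619-136967918). Capitals mark a match to the TATA box letters TATAAA.
Cldn2: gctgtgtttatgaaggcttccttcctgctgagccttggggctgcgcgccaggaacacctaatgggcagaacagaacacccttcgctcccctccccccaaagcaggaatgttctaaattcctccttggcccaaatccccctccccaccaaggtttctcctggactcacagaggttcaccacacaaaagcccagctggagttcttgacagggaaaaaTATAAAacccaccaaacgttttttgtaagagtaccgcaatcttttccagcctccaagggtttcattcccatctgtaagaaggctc
Cldn15: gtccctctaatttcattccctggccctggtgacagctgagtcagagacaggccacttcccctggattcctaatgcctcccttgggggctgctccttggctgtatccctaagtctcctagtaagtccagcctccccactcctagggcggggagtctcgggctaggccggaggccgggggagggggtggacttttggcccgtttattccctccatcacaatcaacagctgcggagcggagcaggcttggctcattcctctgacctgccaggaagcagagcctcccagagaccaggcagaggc
The TATAAA of Cldn2 begins 35 bases before the start, and 13.6% of the 32851 RefSeq promoters of this length held these letters on either strand. The other letters searched on both strands were TTTATNG for CDX factors (in 10.9% of promoters), CAAAGTCC for HNF4 (1.42%) and CTTTGAT for TCF/LEF factors (3.73%). None of these 3 was in the windows of the 7 members with a RefSeq promoter, and the TATA box of Cldn2 was their one match.

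The pore-forming pair was ordered differently across the groups. Cldn2 measured 212 and 203 CPM in Reg4-positive, 169.9 CPM in Lgr5-positive and 145 and 198 CPM in whole organoid cells, and 161, 117, 148, 134 and 192 CPM in YFP and 237 and 204 CPM in Lgr5-EGFP cells. Its mean was highest in Lgr5-EGFP cells, then in Reg4-positive cells, which overlapped them, and lowest in YFP cells. Both higher groups lay above every whole organoid, Lgr5-positive organoid and YFP replicate, and these lower 3 groups overlapped. The place of Reg4-positive cells rests on the very deep wells of replicate 2, without which that replicate was at 131 CPM, inside the range of YFP cells. In the clustering given below, all 3 of these wells were crypt-like. Cldn15 measured 419 and 252 CPM in Reg4-positive, 239 CPM in Lgr5-positive and 1004 and 567 CPM in whole organoid cells, and 400.0, 407, 366, 283 and 339.5 CPM in YFP and 265 and 235 CPM in Lgr5-EGFP cells. Whole organoid cells stood above every other replicate, while YFP overlapped Reg4-positive cells and Reg4-positive overlapped Lgr5-EGFP cells. Without the very deep wells Reg4-positive replicate 2 was at 219.9 CPM, below both Lgr5-EGFP plates.

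Among the other claudins, Cldn3 was lowest in both stem cell sorts. It measured 566 and 440.3 CPM in Reg4-positive, 245 CPM in Lgr5-positive and 550.3 and 682 CPM in whole organoid cells, and 595, 560.2, 522, 472 and 491 CPM in YFP and 274 and 245 CPM in Lgr5-EGFP cells. Reg4-positive, whole organoid and YFP cells overlapped one another, and all 9 of their replicates lay above the 3 replicates of the stem cell sorts. Cldn23 measured 9.21 and 10.2 CPM in Reg4-positive, 4.83 CPM in Lgr5-positive and 39.7 and 89.8 CPM in whole organoid cells, and 35.1, 29.5, 32.6, 14.5 and 10.1 CPM in YFP and 11.3 and 9.71 CPM in Lgr5-EGFP cells. Whole organoid cells were highest, and the lowest YFP plate fell within the range of Lgr5-EGFP cells.

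Cldn4 was highest in Reg4-positive cells. It measured 122 and 79.0 CPM in Reg4-positive, 13.5 CPM in Lgr5-positive and 19.7 and 65.4 CPM in whole organoid cells, and 12.6, 12.1, 17.2, 10.9 and 13.4 CPM in YFP and 15.6 and 24.6 CPM in Lgr5-EGFP cells. Reg4-positive cells were above all other replicates, and both whole organoid replicates stood above the YFP plates. Lgr5-EGFP cells overlapped whole organoid cells above them and YFP cells below them. These are few transcripts, 3 to 10 counts in a YFP plate.

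Cldn7, a claudin that binds the adhesion protein Epcam, averaged 779 ± 43.1 CPM in Reg4-positive (SD, n = 2) and 1113 ± 188 CPM in whole organoid cells (SD, n = 2), and 890.2 ± 105 CPM in YFP (SD, n = 5) and 736 ± 11.1 CPM in Lgr5-EGFP cells (SD, n = 2). The single Lgr5-positive organoid replicate was lower at 521 CPM, with a Poisson interval of 478 to 567 CPM that covers counting error only. The SD of whole organoid cells hides a wide spread between plates. On a scale set over plates, Cldn7 was 1692, 2023, 754 and 471 CPM on plates I to IV of replicate 2. It was 1322, 1203 and 960 CPM on plates I to III of replicate 1. Ocln averaged 65.2 to 72.0 CPM in the 4 groups with replicates, which overlapped, and was 42.5 CPM in Lgr5-positive organoid cells (Poisson interval 30.9 to 57.0 CPM). Its YFP plates ranged from 36.3 to 82.8 CPM. Tjp1 averaged 58.0 ± 25.5 CPM in Reg4-positive, 52.8 ± 13.1 CPM in whole organoid, 42.7 ± 10.5 CPM in YFP and 31.1 ± 10.1 CPM in Lgr5-EGFP cells (SD, n as for Cldn7), and each group overlapped the next. On plates I to IV of whole organoid replicate 2 Tjp1 was 0, 3.81, 56.2 and 43.7 CPM, with 0 counts on plate I and 1 on plate II.

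**Figure D1:**
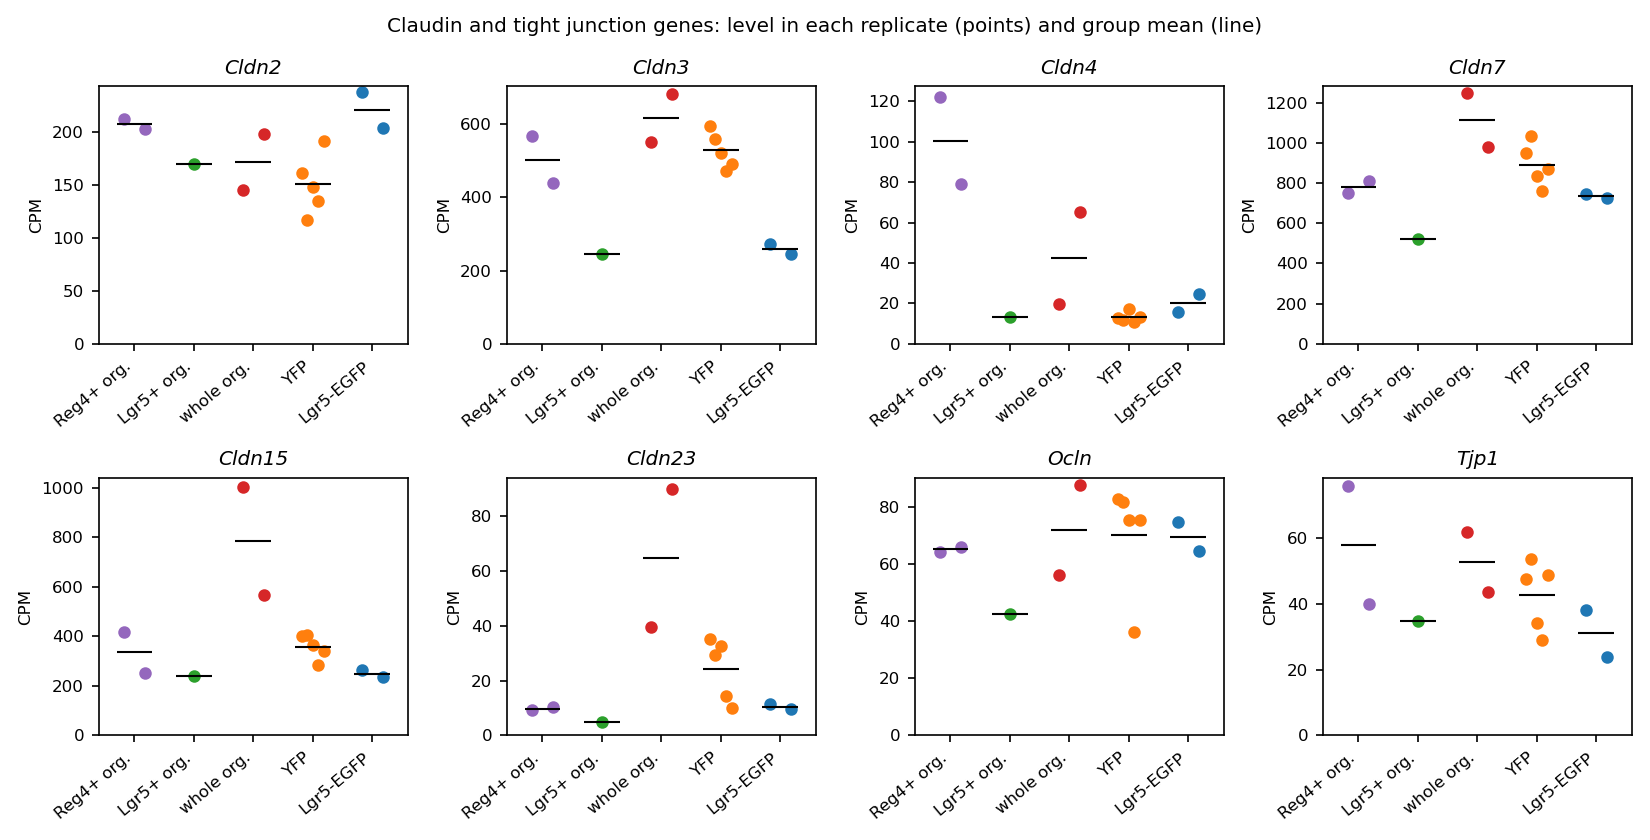
Each panel plots the CPM of 1 gene (y axis, from 0) in every replicate (points) with the group mean (line), for Reg4-positive, Lgr5-positive and whole organoid cells and for YFP and Lgr5-EGFP cells from the intestine. Cldn15 reached 1004 CPM in whole organoid cells, Cldn4 122 CPM in Reg4-positive cells, and Cldn3 stayed at or below 274 CPM in the stem cell sorts.

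The first comparison asks which of these genes differ between the YFP-positive descendants of stem cells and the Lgr5-EGFP stem cells themselves, both taken from the intestine. Cldn3 was 2.04-fold higher in YFP cells, a log2 fold change of 1.03 (SE 0.15, adjusted p = 0.000249, edgeR's quasi-likelihood test with Benjamini-Hochberg adjustment over 9065 genes). Cldn15 was higher by 0.53 (SE 0.16, adjusted p = 0.0246) and Cldn23 by 1.29 (SE 0.41, adjusted p = 0.0344), both on the log2 scale, while Cldn2 fell by 0.54 (SE 0.18, adjusted p = 0.0362). Thus 3 of 8 members rose and 1 fell, where 14.7% of all tested genes rose and 11.0% fell at the same false discovery rate of 0.05. Cldn7 (log2 fold change 0.28), Tjp1 (0.55), Ocln (0.09) and Cldn4 (-0.61) did not pass.

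The Cldn3 call was kept in all 14 alternatives, but the other 3 calls were each lost without any 1 of several plates and in other settings. For Cldn15 these were either Lgr5-EGFP plate and YFP plates 1 and 2, with a log2 fold change of 0.44 to 0.63 and an adjusted p of 0.0539 to 0.226. For Cldn23 and Cldn2 they were the same plates and YFP plate 3, with 1.12 to 1.39 (adjusted p 0.0731 to 0.216) for Cldn23 and -0.66 to -0.42 (adjusted p 0.0537 to 0.269) for Cldn2. In 1 fit of all replicates none of the 3 passed (adjusted p 0.0784 to 0.192), and with DESeq2 Cldn23 and Cldn2 did not. When each well was thinned to 1500 transcripts, so that deep wells no longer weighed more, Cldn15 differed by 0.02 on the log2 scale (adjusted p = 0.976) and Cldn2 by -0.77 (adjusted p = 0.0543).

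Other cell types and depth moved with this comparison. The sum of the 22 enterocyte markers was 2468 to 9378 CPM in YFP cells, where all 22 had counts, against 1073 to 1075 CPM in Lgr5-EGFP cells, where 17 had counts. The 16 enteroendocrine markers summed to 1044 to 2013 CPM in YFP cells (15 with counts) against 89.5 to 890.3 CPM in Lgr5-EGFP cells (12 with counts), with no overlap. The 12 Paneth cell markers summed to 13837 to 66331 CPM against 6458 to 14836 CPM and the 12 goblet markers to 3253 to 10283 CPM against 1897 to 5268 CPM, both with overlap and all with counts. Of the immune markers, 11 of 12 immune markers had counts in YFP cells, at 20.2 to 87.1 CPM in all, against 3 of 12 and 1.74 to 3.24 CPM in Lgr5-EGFP cells, with Ptprc at 0 in both. Median transcripts per well were 5576 to 7739.5 in YFP and 9543 to 13132 in Lgr5-EGFP plates. Their part in the result was not tested.

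Crypt and differentiated cells were next compared inside each replicate. Wells of each YFP plate and each whole organoid replicate were thinned, ranked by a score and cut into 3 equal parts. The score was the mean log2 of the count plus 1 over 22 enterocyte markers less the same mean over 20 crypt markers. None of these markers was a member. The top part is called enterocyte-marker wells and the bottom part crypt-marker wells; such parts are ranges of a score, not cell types, and 20 to 25 wells of 68 to 80 in the larger YFP plates lay within 0.05 of a limit. Counts were summed by part and tested with the replicate as a block, which pairs the parts of 1 replicate. Whole organoid replicates 1 and 2 span 3 and 4 plates whose wells were ranked together. Their parts are thus not paired within a plate, and differences between plates can enter.

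In YFP plates, Cldn2 was lower in enterocyte-marker wells of every plate, while Cldn3, Cldn7, Cldn15, Cldn23 and Tjp1 were higher in every plate. Cldn2 measured 64.6, 66.9, 82.1, 48.7 and 122 CPM in enterocyte-marker wells, against 198, 137, 174, 137 and 206 CPM in crypt-marker wells of plates 1 to 5, with no overlap. It fell by 1.15 on the log2 scale (SE 0.22, adjusted p = 0.000888, edgeR's quasi-likelihood test). Cldn15 measured 490.1, 531, 482, 273 and 367 CPM in enterocyte-marker wells, against 335, 292, 197, 252 and 267 CPM in crypt-marker wells, and the lowest enterocyte-marker value lay inside the range of crypt-marker wells. It rose by 0.67 (SE 0.17, adjusted p = 0.00654).

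Cldn23 measured 59.2, 62.5, 71.8, 29.2 and 15.3 CPM in enterocyte-marker wells, against 22.3, 10.5, 18.8, 10.5 and 9.37 CPM in crypt-marker wells. It rose by 1.72 (SE 0.37, adjusted p = 0.00225), and plate 5 had the smallest gap. Cldn3 measured 722, 741, 549, 526 and 529.9 CPM in enterocyte-marker wells, against 504, 408, 442, 378 and 361 CPM in crypt-marker wells, with no overlap, and rose by 0.53 (SE 0.14, adjusted p = 0.00935). Cldn7 rose by 0.44 (SE 0.14, adjusted p = 0.0249) and Tjp1 by 0.97 (SE 0.31, adjusted p = 0.0303). Tjp1 measured 64.6, 84.8, 30.8, 68.1 and 71.3 CPM in enterocyte-marker wells, against 44.7, 35.1, 23.5, 10.5 and 32.8 CPM in crypt-marker wells.

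Of the 7 members tested, 5 rose and 1 fell, beside 13.7% and 9.27% of all 5578 tested genes that were not markers. Ocln was lower in enterocyte-marker wells in 5 of 5 plates without passing (log2 fold change -0.49, adjusted p = 0.155), and Cldn4 had too few counts to be tested. Cldn2 and Cldn23 kept their calls in the 12 alternatives that tested them, and with thinned wells both had too few counts to be tested. Cldn15 lost its call without plate 3 (adjusted p = 0.0523) and Cldn3 without plate 2 (adjusted p = 0.0714) or with thinned wells (log2 fold change 0.23, adjusted p = 0.525); Cldn7 lost it without plate 1 or 2 (adjusted p = 0.140 and 0.137), and Tjp1 without plate 1, 2, 4 or 5 (adjusted p 0.0518 to 0.128).

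In whole organoid cells, grown as epithelium alone, the same split gave a wide gap for Cldn15. It measured 1631 and 1208 CPM in enterocyte-marker wells, against 338 and 274 CPM in crypt-marker wells of replicates 1 and 2. This is a rise of 2.12 on the log2 scale (SE 0.23, adjusted p = 4.24e-07, edgeR's quasi-likelihood test). The middle wells differed between replicates, at 1403 and 386 CPM, and were high in replicate 1 and near the crypt-marker wells in replicate 2.

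Cldn2 moved the other way, at 44.5 and 82.6 CPM in enterocyte-marker wells, against 202 and 188 CPM in crypt-marker wells. It fell by 1.77 (SE 0.26, adjusted p = 1.82e-05). Cldn23 measured 64.1 and 186 CPM against 19.7 and 45.4 CPM in crypt-marker wells and rose by 1.79 (SE 0.28, adjusted p = 3.58e-05). Cldn3 measured 721 and 973 CPM in enterocyte-marker wells, against 399 and 452 CPM in crypt-marker wells, and rose by 0.89 (SE 0.20, adjusted p = 0.000966).

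These 4 genes kept their calls in the 10 or 11 alternatives that tested each, which for Cldn2 and Cldn23 leaves out the thinned wells, and they are 3 members that rose and 1 that fell, beside 26.1% and 26.8% of all tested genes. Cldn7 was higher in enterocyte-marker wells of both replicates, at 1469 and 1037 CPM against 896 and 848 CPM in crypt-marker wells, and did not pass (log2 fold change 0.42, adjusted p = 0.0916), although it did with DESeq2 size factors (0.52, adjusted p = 0.0427). Ocln (0.05) and Tjp1 (0.25) did not pass. Cldn4, not tested, measured 1.78 and 38.7 CPM in enterocyte-marker wells, against 35.3 and 93.9 CPM in crypt-marker wells. The gap in replicate 2 rests on 1 well, which held 45 of the 60 Cldn4 counts of its crypt-marker wells. Enterocyte-marker wells of that replicate had 15 counts.

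**Figure D2:**
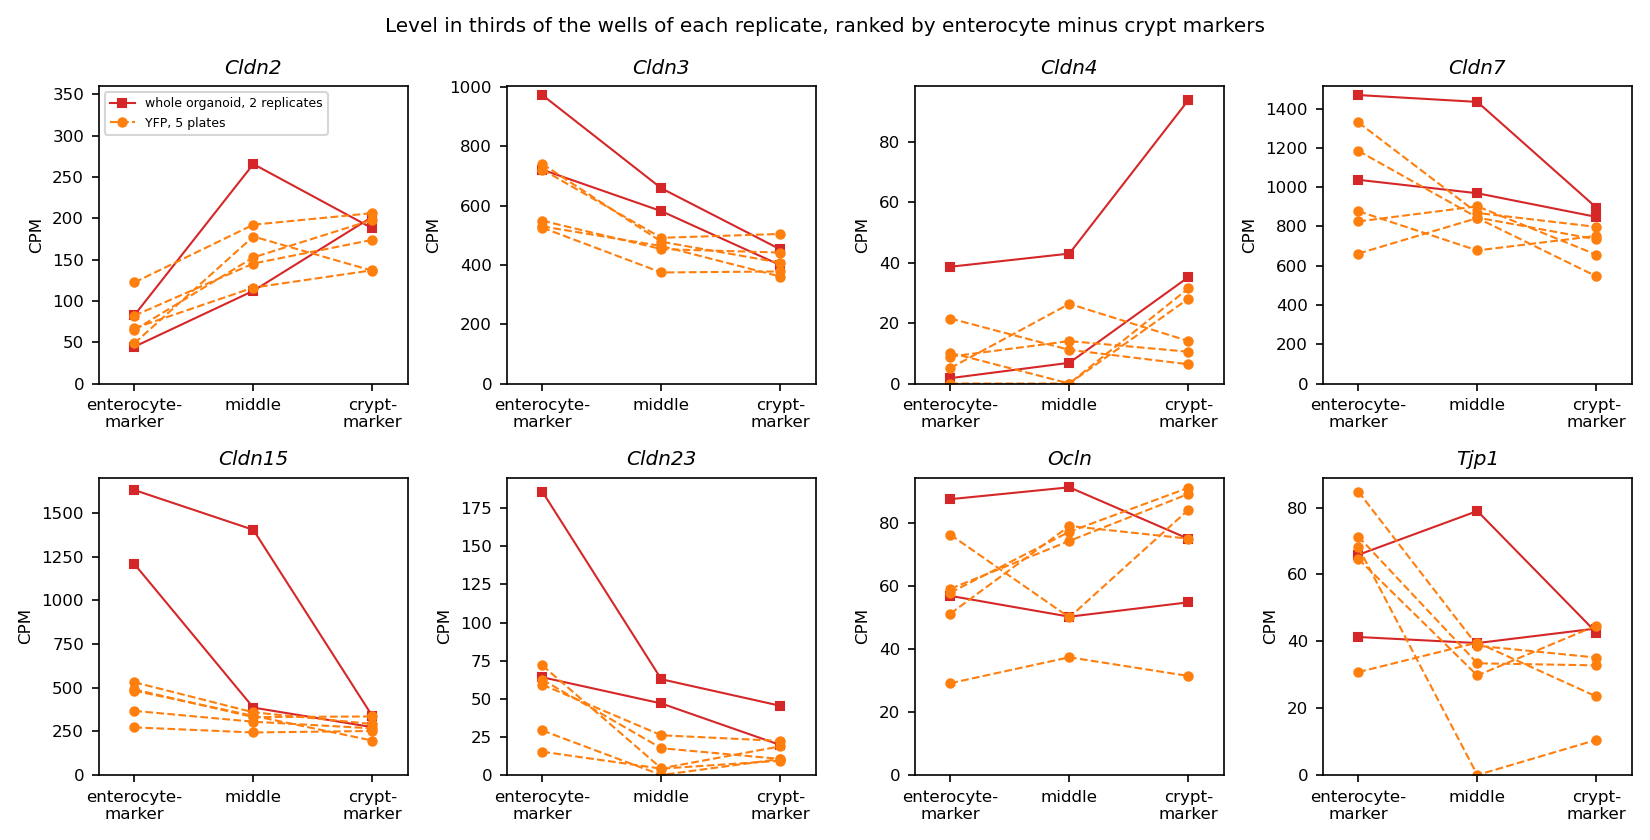
Each panel plots the CPM of 1 gene (y axis, from 0) in enterocyte-marker, middle and crypt-marker wells (x axis), with 1 line for each whole organoid replicate (squares, solid) and each YFP plate (circles, dashed). Cldn15 climbs to 1631 and 1208 CPM in enterocyte-marker wells of whole organoids and to at most 531 CPM in those of YFP plates. The Cldn2 lines are lower in enterocyte-marker than in crypt-marker wells. In whole organoid replicate 2 and YFP plate 4, Cldn2 is highest in the middle wells, at 266 and 178 CPM.

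The size of the enterocyte over crypt difference itself was compared between whole organoid and YFP cells. Among the 7 members tested it passed for Cldn15 alone, being larger in whole organoid cells by 1.45 on the log2 scale (SE 0.28, adjusted p = 0.00140, edgeR's quasi-likelihood test), beside 8.01% of all tested genes with a positive difference. The enterocyte-marker wells of both whole organoid replicates were above those of all 5 YFP plates, while the crypt-marker wells overlapped. With thinned wells the difference was 1.13 (adjusted p = 0.0721). For Cldn2 it was -0.62, with a 95% interval of -1.31 to 0.08, and for Cldn23 0.08, with an interval of -1.05 to 1.20, so the data allow sizeable differences either way for Cldn23.

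The marker score itself was further apart in organoids, and the parts lay at different scores in the 2 groups. Crypt-marker wells of whole organoid replicates 1 and 2 had mean scores of 0.227 and 0.003. Enterocyte-marker wells of YFP plate 4 had 0.148, below the first of these, and those of plates 1, 2, 3 and 5 had 0.472 to 0.853. The 22 enterocyte markers summed to 69663 to 103773 CPM in enterocyte-marker wells, against 2769 to 7947 CPM in crypt-marker wells of whole organoids, and to 3183 to 22200 CPM in enterocyte-marker wells, against 1544 to 3690 CPM in crypt-marker wells of YFP plates. Paneth cell markers summed to 60.5 to 612 CPM against 741 to 12980 CPM in crypt-marker wells of whole organoids, and to 1577 to 2757 CPM against 3125 to 77993 CPM in those of YFP plates. Enterocyte-marker wells also held fewer transcripts, except in YFP plate 3. The medians were 5972 and 3639 against 10492 and 5287 in crypt-marker wells of whole organoids. In YFP plates they were 5433 to 7213 against 6959 to 8951, with 7213 against 6959 in plate 3. The part of these differences in the results was not tested.

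Culture and intestine were compared over whole groups next. Whole organoid cells were set against YFP cells and, for stem cells, Lgr5-positive organoid cells against Lgr5-EGFP cells. In both comparisons culture cannot be told apart from mouse line. Whole organoid and YFP cells also differ in how they were chosen, as unselected cells and as labelled progeny. Cldn15, Cldn23 and Cldn4 were higher in whole organoid cells, and no member passed between the stem cell sorts. From the values given above, Cldn15 rose by 1.13 (SE 0.23, adjusted p = 0.00365), Cldn23 by 1.32 (SE 0.36, adjusted p = 0.0174) and Cldn4 by 1.61 (SE 0.42, adjusted p = 0.0135) on the log2 scale (edgeR's quasi-likelihood test over 10632 genes). These are 3 of 8 members, beside 13.4% of all tested genes that rose. Cldn2 (log2 fold change 0.18), Cldn3 (0.22), Cldn7 (0.32), Ocln (-0.03) and Tjp1 (0.28) did not pass.

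Each of the 3 calls was lost without 1 of the whole organoid replicates. Without replicate 1 Cldn15 had a log2 fold change of 0.64 (adjusted p = 0.128), and without replicate 2 Cldn23 had 0.65 (adjusted p = 0.273) and Cldn4 0.56 (adjusted p = 0.287). Within replicate 2 the 4 plates differed, with Cldn15 at 912, 926, 407 and 498 CPM on plates I to IV of a scale set over plates, against 968 to 973 CPM on the 3 plates of replicate 1. Enterocyte markers moved with these calls, summing to 22108 to 46471 CPM in whole organoid and 2468 to 9378 CPM in YFP cells, all 22 with counts in both. Paneth markers summed to 399 to 5824 CPM in whole organoid and 13837 to 66331 CPM in YFP cells, 12 of 12 with counts in both, and immune markers to 3.30 to 6.29 CPM (4 of 12 with counts) and 20.2 to 87.1 CPM (11 of 12), with 2 Ptprc counts in whole organoid and 0 in YFP cells. Their part was not tested.

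Between the stem cell sorts, 0 of 8 members passed edgeR's test, 0 had an unadjusted p under 0.05 and DESeq2 called 0, beside 1.44% of genes called in either direction. Lgr5-positive organoid cells had 1 replicate, which the fit takes to vary like the other groups. Cldn15 differed by -0.03, with a 95% interval of -0.74 to 0.69, and Cldn3 by -0.05, with an interval of -0.57 to 0.47. For Cldn7 the interval was -0.98 to 0.06, for Ocln -1.40 to 0.05 and for Cldn23 -2.76 to 0.65. Tjp1 differed by 0.22, Cldn2 by -0.34 and Cldn4 by -0.56. These data thus leave room for lower and, for genes such as Cldn15 and Cldn3, for higher levels in Lgr5-positive organoid cells.

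**Figure D3:**
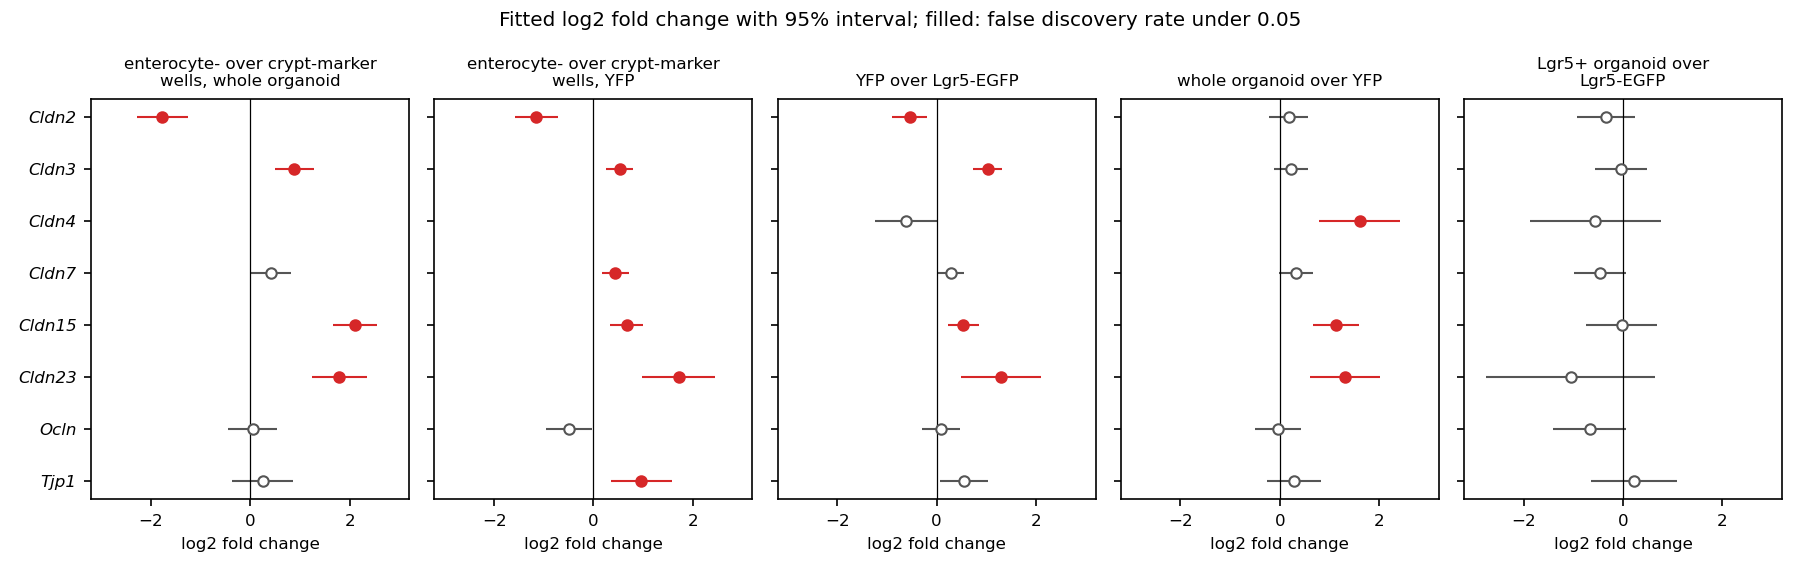
Each panel plots the fitted log2 fold change (x axis) of the members (y axis) with bars of the 95% interval, filled where the false discovery rate is under 0.05, for enterocyte- over crypt-marker wells in whole organoid and YFP cells, YFP over Lgr5-EGFP, whole organoid over YFP and Lgr5-positive organoid over Lgr5-EGFP cells. Cldn2 and Cldn15 lie on opposite sides of 0 in the first 3 panels, and all bars of the last panel cross 0; Cldn4 was not tested in the first 2.

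Within the cultures, the Reg4-positive and Lgr5-positive sorts were set against whole organoid cells. Cldn23 was lower in both sorts, by 2.67 on the log2 scale in Reg4-positive cells (SE 0.53, adjusted p = 0.0262) and by 3.66 in Lgr5-positive cells (SE 0.73, adjusted p = 0.0387, edgeR's quasi-likelihood test over 10522 genes). The Lgr5-positive value comes from 1 replicate with 5 Cldn23 counts, which the fit takes to vary like the other groups. Cldn23 was the 1 member of 8 that passed in each, beside 4.07% of genes that fell in Reg4-positive and 2.97% in Lgr5-positive cells; the sorts share their whole organoid replicates. Without the 3 very deep wells the adjusted p was 0.0624 for Reg4-positive and 0.0742 for Lgr5-positive cells. Without Reg4-positive replicate 1 or 2 it was 0.105 or 0.0820.

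The calls of Cldn4 and Cldn15 depended on the whole organoid replicates and on the settings. Cldn4 had a log2 fold change of 1.26 in Reg4-positive cells (adjusted p = 0.222), and without whole organoid replicate 2 it rose by 2.35 (adjusted p = 0.00385). Cldn15 had -1.22 (adjusted p = 0.136), and without whole organoid replicate 2 it fell by 1.57 (adjusted p = 0.0462). In Lgr5-positive cells Cldn15 had -1.68 (adjusted p = 0.144), and -2.01 (adjusted p = 0.0393) without whole organoid replicate 2, while Cldn4 had -1.57 (adjusted p = 0.301), and -2.21 (adjusted p = 0.0262) without whole organoid replicate 1. With thinned wells, both passed in Reg4-positive cells, Cldn4 at 2.15 (adjusted p = 0.00910) and Cldn15 at -2.09 (adjusted p = 0.00869). Cldn3 passed in Lgr5-positive cells with DESeq2 (-1.29, adjusted p = 0.0450).

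Of the counts of Reg4-positive replicate 2, the 3 deepest wells held 71.1% for Cldn2 and 60.9% for Cldn15 but 18.8% for Cldn4. Without these wells Cldn2 was at 131 CPM, Cldn15 at 219.9 CPM and Cldn4 at 143 CPM. With them these levels were 203, 252 and 79.0 CPM, and the 3 wells held 49.3% of all counts of the replicate. Other cell types moved with both sorts. Enterocyte markers summed to 3437 to 3948 CPM in Reg4-positive cells (22 of 22 with counts), 1431 CPM in Lgr5-positive cells (16 of 22) and 22108 to 46471 CPM in whole organoid cells (22 of 22). Paneth markers, all 12 with counts in each, summed to 51374 to 165226 CPM in Reg4-positive, 8178 CPM in Lgr5-positive and 399 to 5824 CPM in whole organoid cells. Goblet markers summed to 7981 to 24116 CPM in Reg4-positive cells (12 of 12), 1865 CPM in Lgr5-positive cells (10 of 12) and 1124 to 4832 CPM in whole organoid cells (12 of 12). Enteroendocrine markers summed to 6710 to 21224 CPM in Reg4-positive cells (14 of 16 with counts), 116 CPM in Lgr5-positive cells (7 of 16) and 39.0 to 2815 CPM in whole organoid cells (15 of 16). Stromal markers summed to 57.6 to 333 CPM in Reg4-positive cells (3 of 11 with counts, Col1a1 at 0) and 20.4 to 31.7 CPM in whole organoid cells (10 of 11). The part of these cell types was not tested.

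To see which cells carried each claudin, wells were clustered without the junction genes and 12 of 25 clusters, with 534 of 1209 wells, were named from marker genes. Clusters followed libraries closely. Of the 80 crypt-like wells, 68 came from the Lgr5-positive organoid replicate, and of the 155 enterocyte-like organoid wells 139 came from whole organoid replicate 1. Of 72 enteroendocrine-like organoid wells, 15 formed a cluster led by Afp, Reg4 and Alb ahead of Chga. The larger of the 2 Paneth-like organoid clusters, with 82 of 98 wells and all 59 of Reg4-positive replicate 1, also had the goblet genes Spink4, Tff3 and Muc2 among its leading genes and raised 9 of 12 goblet markers. The smaller, with 16 wells of which 14 came from Reg4-positive replicate 2, raised 8 of 12 goblet markers, with 0 among its leading genes. No organoid cluster was named goblet-like. No doublet caller was run. The levels that follow are those of 1 replicate each or, for the intestine, pooled over YFP and Lgr5-EGFP plates, with no test.

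Cldn4 was concentrated in enteroendocrine-like and some Paneth-like wells. In enteroendocrine-like wells it was 226 CPM in Reg4-positive replicate 2 (49 wells) and 255 CPM in whole organoid replicate 1 (15 wells), against 5.44 and 12.7 CPM in enterocyte-like wells of whole organoid replicates 1 and 2. Enteroendocrine-like wells, 60.5% of the wells of Reg4-positive replicate 2, held 70.6% of its Cldn4 counts and 24.6% of all its counts, or 87.0% and 48.6% when the 3 very deep wells were left out. They held 50.0% of the Cldn4 counts and 3.86% of all counts of whole organoid replicate 1. In cells from the intestine Cldn4 stood at 119 CPM (unscaled) in 18 enteroendocrine-like wells (exact Poisson interval 75.6 to 179) and 69.0 in 29 Paneth-like wells (48.1 to 96.0). It was 19.0 in 35 goblet-like wells (9.11 to 34.9) and 12.8 in 39 enterocyte-like wells (3.48 to 32.7). The intervals cover counting error only, and those of enteroendocrine-like and Paneth-like wells overlap. A single enteroendocrine-like well of Lgr5-EGFP plate 2 held 11 of the 23 Cldn4 counts of its class.

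A single well carried much of the Cldn4 level of whole organoid replicate 2. This Paneth-like well of 24812 transcripts held 45 of the 99 Cldn4 counts of the replicate, or 45.5%. It also carried 66 of the 1033 Cldn3 counts. It was 1 of the 10 Paneth-like wells of that replicate, which together stood at 603 CPM, against 102 and 24.5 CPM in the Paneth-like wells of Reg4-positive replicates 1 and 2. The other 9 held 4 Cldn4 counts, or 68.3 CPM unscaled (exact Poisson interval 18.6 to 175).

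Cldn15 was highest in enterocyte-like wells and lowest in enteroendocrine-like wells of the organoids. It was 1386 CPM in 139 and 1009 CPM in 12 enterocyte-like wells of whole organoid replicates 1 and 2 and 644 CPM in 14 such wells of YFP plate 1, against 45.3 CPM in enteroendocrine-like wells of Reg4-positive replicate 2 and 102 CPM in those of whole organoid replicate 1. Paneth-like wells lay between, at 455 and 245 CPM in Reg4-positive replicates 1 and 2. In the intestine 39 enterocyte-like wells held 638 CPM (553 to 733) and 18 enteroendocrine-like wells 285 (215 to 371), while 29 Paneth-like wells at 201.1 (164 to 244) and 8 tuft-like wells at 147 (78.1 to 251) were lower.

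In organoid classes with at least 10 wells in a replicate, Cldn2 was lower in enterocyte-like and enteroendocrine-like than in Paneth-like and crypt-like wells. Smaller classes did not all keep this order. Reg4-positive replicate 1 had 234 CPM in 7 enteroendocrine-like wells, and whole organoid replicate 1 had 35.5 CPM in 3 Paneth-like wells. In Reg4-positive replicate 2, 6 crypt-like wells, the very deep ones among them, held 156 of the 218 Cldn2 counts. In the larger classes Cldn2 was 188 and 176 CPM in Paneth-like wells of Reg4-positive replicates 1 and 2 and 148 CPM in those of whole organoid replicate 2. It was 172 CPM in the crypt-like wells of the Lgr5-positive organoid replicate. Enteroendocrine-like wells of Reg4-positive replicate 2 and whole organoid replicate 1 had 56.6 and 71.3 CPM. Enterocyte-like wells had 82.4 and 25.4 CPM in whole organoid replicates 1 and 2 and 33.9 CPM in YFP plate 1. In the intestine it was 25.5 CPM in enterocyte-like wells (11.0 to 50.3), 203 in Paneth-like wells (166 to 246), 161 in enteroendocrine-like wells (109 to 228) and 131 in 35 goblet-like wells (102 to 166).

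**Figure D4:**
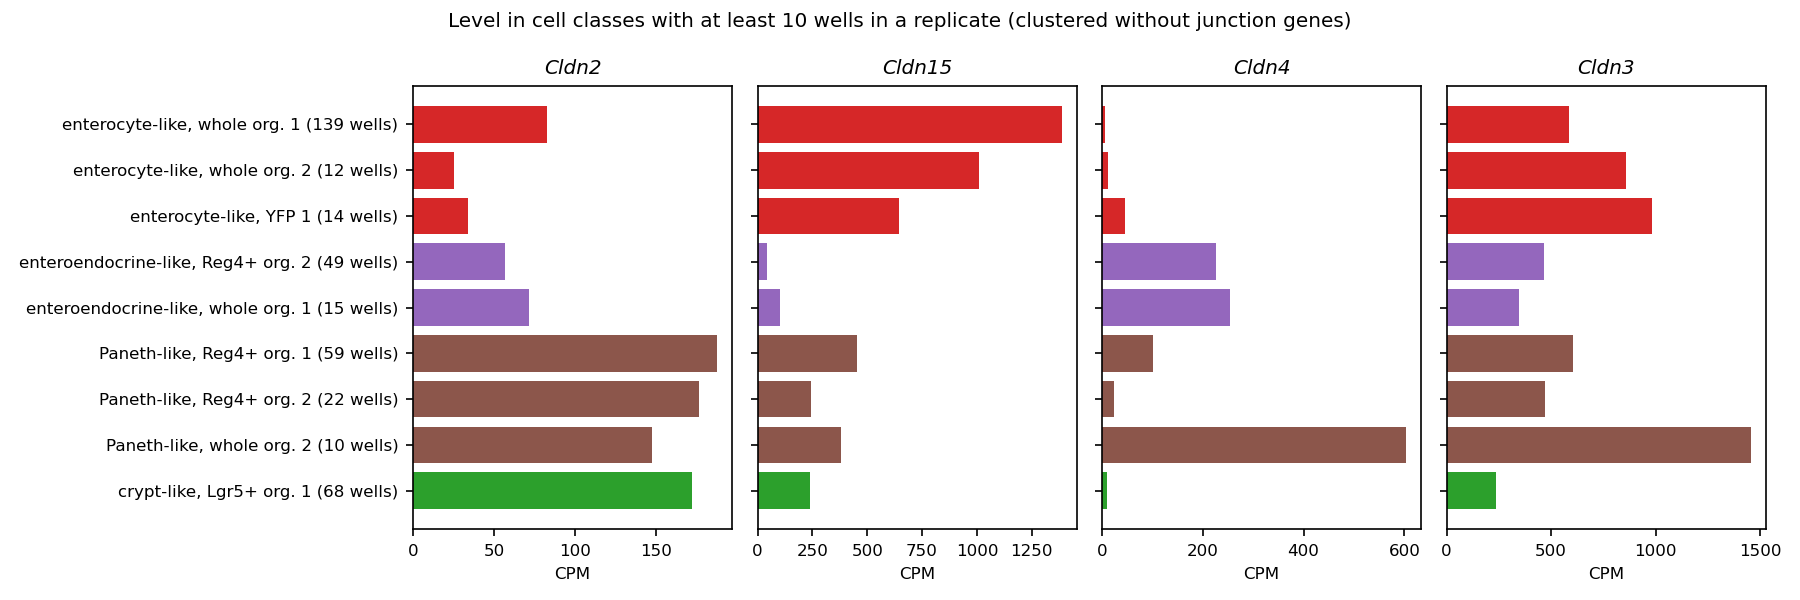
Bars give the CPM (x axis, from 0) of Cldn2, Cldn15, Cldn4 and Cldn3 in each named cell class of a replicate with at least 10 wells (y axis), coloured by class, without replicate error. Cldn15 is longest in enterocyte-like wells, up to 1386 CPM, and Cldn4 in enteroendocrine-like and Paneth-like wells, where the 603 CPM bar of whole organoid replicate 2 includes the well with 45 counts.

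Well by well at a matched depth of 1500 transcripts, Cldn15 was found in 68.5% of wells of whole organoid replicate 1 (95% exact binomial interval 62.6 to 73.9%) and 53.6% of replicate 2 (46.6 to 60.5%), and in 28.6 to 51.2% of wells of the YFP plates. Before thinning these shares were 93.1% and 80.9% in whole organoid replicates and 71.4 to 86.2% in YFP plates. Cldn2 was found in 16 of 80, 14 of 78, 13 of 74, 5 of 35 and 17 of 68 thinned wells of YFP plates 1 to 5 and in 28 of 75 and 25 of 84 of those of Lgr5-EGFP plates. In Lgr5-EGFP plates 16 of 75 and 11 of 84 wells held both claudins, and in YFP plates 1 to 4 wells of a plate did. Whole organoid replicate 1 had 172 wells with Cldn15 alone, 15 with Cldn2 alone and 17 with both, of 276, and replicate 2 had 99, 24 and 13, of 209.

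Other junction genes were followed in 4 lists of 72 genes. Between YFP and Lgr5-EGFP cells, 7 of 42 tested rose and 2 fell, beside 14.7% and 11.0% of all genes. The list of claudin-linked membrane proteins had 3 of 5 higher: Epcam (log2 fold change 1.24), which binds Cldn7, and the protease inhibitors Spint1 (0.83) and Spint2 (1.05). In the adherens junction list, Cdh17 (1.09), the intestinal cadherin, and Ctnnb1 (0.79), which encodes beta-catenin, rose and Mllt4 (-0.65), which encodes afadin, fell. Of 21 other tight junction genes F11r (1.61), which encodes the adhesion protein JAM-A, and Cxadr (0.50) rose and Sympk (-0.85) fell, and none of 6 desmosome genes passed. The list medians were 0.83, 0.25, 0.11 and 0.40 on the log2 scale in the order claudin-linked, adherens, other tight junction and desmosome, beside -0.004 over all genes.

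In enterocyte-marker wells of whole organoids, 13 of 38 tested junction genes rose and 2 fell against crypt-marker wells, beside 26.1% and 26.8% of all genes. Among other tight junction genes, 7 of 18 rose, with Tjp3 (0.71), which encodes the scaffold ZO-3, F11r (0.85) and Cxadr (0.89) among them, and 2 fell, Ybx3 (-1.82), which encodes a Y-box factor that binds ZO-1, being the more abundant. Cdh17 (0.80), Pvrl2 (0.88), Jup (0.81), Pkp3 (0.96), St14 (0.84) and Spint1 (1.25) rose in the other lists. In YFP plates 3 of 38 rose, namely Cdh17 (1.26), Spint1 (1.14) and Cldn25 (0.95), and 3 fell, namely Cldn12 (-1.13), the polarity kinase gene Prkci (-0.90) and the desmosome gene Dsp (-0.56), beside 13.7% and 9.27% of all genes. The difference between whole organoid and YFP cells passed for Cxadr (1.01) and Ybx3 (-1.52).

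Between whole organoid and YFP cells 7 of 48 junction genes rose and 1 fell, beside 13.4% and 9.45% of all genes. Pard6b (1.16), Mpp5 (1.11) and Igsf5 (0.91) rose among other tight junction genes, where Ybx3 fell (-0.60), and St14 (0.54), Prss8 (0.83) and Spint1 (0.83) rose among claudin-linked proteins, with Pkp2 (0.57) in the desmosome list. Within the cultures, edgeR called 0 of 48 in Reg4-positive against whole organoid cells (8 at an unadjusted p under 0.05, 0 by DESeq2) and 0 of 48 in Lgr5-positive against whole organoid cells (9 and 2). Between the stem cell sorts it was also 0 of 48 (6 and 0). Of the 19 other claudin genes in the tables, 2 reached 100 counts over all replicates, Cldn12 with 527 and Cldn25 with 623, and 7 had none.

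Over the 12 replicates, the genes nearest to each member were found by the mean absolute difference of log2 CPM after centring, among 10659 genes. For Cldn15 these were Pgrmc2 (0.16), Adtrp (0.16) and Wsb2 (0.17), where the median gene was at 0.62. For Cldn2 they were Klhl9 (0.12), Pomgnt1 (0.13) and Cdc27 (0.13), for Cldn3 Ifngr1 (0.13), Cope (0.15) and Lasp1 (0.16), and for Cldn7 Rps6ka1 (0.09), Txnrd1 (0.10) and Calr (0.10). Cldn4 and Cldn23 had no gene as near, with Hist1h1c at 0.45 for Cldn4 and Dhrs11 at 0.33 for Cldn23. Ocln was nearest to Ncstn (0.14) and Tjp1 to Rab18 (0.14).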

How the data were processed

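Mouse intestinal and organoid cells were profiled by CEL-seq, with 1 column a well and 1 row a gene in each deposited table. As deposited, each value is an estimated count of transcripts, for which the authors counted the 4-base barcodes of each gene and corrected the number for collisions among the 256 possible barcodes, as the values themselves show, since 3897264 of 3897290 non-zero values gave whole barcode numbers within 1e-06. Per the submitters' processing notes, BWA 0.6.2-r126 and the mm10 (GRCm38) build were used; the sources used here do not say whether counting used strand. The 92 spike-in rows stayed out of library sizes, and took 0.925 to 12.2% of counts. The Lgr5-positive organoid table was matched to its samples by its name alone, and 192 columns of 2 tables that matched no sample were not used.

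The design text calls barcodes 49 to 96 of sample number 4 unrelated. The deposited table of YFP plate 4 ends at well 48; since plate IV of whole organoid replicate 2 holds such wells, a fit without them was an alternative. Estimated counts were rounded, wells of at least 1500 counts were kept (35 to 276 wells a replicate) and wells were summed by replicate. No 2 kept wells were identical. Tests used edgeR 4.0.16 in R 4.3.3 (TMM scaling, filterByExpr, quasi-likelihood test, Benjamini-Hochberg adjustment, false discovery rate 0.05), with standard errors from the fold change and its F statistic. Lgr5-EGFP and YFP replicates were fitted together, the organoid replicates together, and culture against intestine in 1 fit of all 12. Scaling for plates and for parts of the wells was set separately, so these CPM values differ slightly from those of the replicates. The parts of the wells are paired by replicate, which is the design of that split, and were fitted with the replicate as a block. By their labels, replicate numbers of different groups share only a number. Clusters came from scanpy 1.11.5 (Leiden, igraph 0.11.9) and figures from matplotlib 3.10.9.

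The members, the marker lists and the junction lists were chosen with earlier results of these data known. All 8 members are named in every comparison; other junction genes are named where called, at most 4 a list and comparison by mean level, and the 3 genes nearest each member by its profile over replicates. Alternatives were another scaling, DESeq2 1.42.0, no filter on low counts, thinned wells, no deep wells, other groupings in the fit, and leaving out each replicate. The scripts were tested on simulated data.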

Additional observations from a re-analysis of the deposited data

Results flagged for a closer look

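Ocln had 1 YFP plate far below the others, at 36.3 CPM on plate 4, where the other 4 plates lay between 75.6 and 82.8 CPM. Plate 4 had 35 kept wells, and its Ocln level rests on 10 counts. This was 1 of 15 sets of 5 YFP plates examined, levels and differences between enterocyte- and crypt-marker wells, and chance singles out about 1 in 20. The cause was not tested.

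The enterocyte over crypt difference of Cldn15 was larger in whole organoid than in YFP cells by 1.45 on the log2 scale, by a test of the difference itself. The wider gap between the marker sums of the wells in whole organoids moved with it, and its part was not tested.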

How the results depend on the processing

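For single members that were called, alternatives kept the call 205 times and lost it 46 times; for members not called, 18 gained a call and 31 changed sign without one. Beside the losses given above, calls of YFP against Lgr5-EGFP were lost in 1 fit of all replicates for Cldn15, Cldn23 and Cldn2 (adjusted p = 0.192, 0.0843 and 0.0784) and with DESeq2 for Cldn23 and Cldn2 (0.0699 and 0.0568). Cldn4 lost its call between whole organoid and YFP cells with thinned wells (0.105). In YFP wells Cldn7 lost it with thinned wells (0.126) and without secretory wells (0.0591), and Tjp1 with DESeq2 (0.0658), smaller outer parts (0.0728) and without secretory wells (0.114). Genes called numbered 2330 between YFP and Lgr5-EGFP cells (4 members), 680 and 382 for Reg4-positive and Lgr5-positive against whole organoid cells (1 member each), 153 for Lgr5-positive organoid against Lgr5-EGFP cells (0), 2435 for whole organoid against YFP cells (3), 1282 and 2954 for enterocyte- against crypt-marker wells in YFP and whole organoid cells (6 and 4), and 1099 for their difference (1). In that order, thinning moved the counts to 589 genes (1 member), 2 members for Reg4-positive cells, 214 (0), 19, 661 (1), 314 (1), 687 (2) and 224 (0), where fewer counts entered each fit. Without a filter on low counts, Reg4-positive cells had 1716 genes and 3 members, Lgr5-positive organoid cells 1372 and 3 against whole organoid cells, and 472 genes against Lgr5-EGFP cells. In 1 fit of all replicates, which shares the spread, YFP against Lgr5-EGFP cells had 1 member, Reg4-positive cells 1910 genes and 2 members, and Lgr5-positive organoid cells 1738 genes and 4 members; a fit of the 2 stem cell sorts alone had 615 genes. Without the deep wells the 2 organoid comparisons had 0 members and Lgr5-positive cells 143 genes. The DESeq2 test gave 2 members for YFP, 3 for Lgr5-positive organoid cells and 519 genes for the difference, which had 695 genes with smaller outer parts, 695 without secretory wells and 687 with no replicate block.

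Leaving out 1 replicate gave 1104 to 2446 genes and 1 to 4 members for YFP against Lgr5-EGFP, 209 to 933 and 0 to 3 for Reg4-positive, 561 to 837 and 2 for Lgr5-positive against whole organoid, 41 to 56 genes against Lgr5-EGFP, 1187 to 2199 and 1 to 3 for whole organoid against YFP, 820 to 1284 and 3 to 5 in YFP wells, 1805 to 2319 genes in whole organoid wells and 354 to 1030 for the difference. Samples with the same replicate number correlated at -0.10 to 0.11 after each group was centred on its mean. Deviations in a group of 2 replicates mirror each other, so this cannot show whether such samples share a batch. With the number as a replicate block in edgeR's quasi-likelihood test, whole organoid against YFP had 1548 genes and Cldn23 0.89 (adjusted p = 0.0798). With that block Cldn7 passed for YFP against Lgr5-EGFP (0.41, adjusted p = 0.0393). Without the block that pairs the parts of a replicate, Cldn7 lost its call in YFP wells (adjusted p = 0.0788).

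Signs turned for members that were not called, all on the log2 scale. Over the leave-one-out fits, YFP against Lgr5-EGFP gave -0.026 to 0.19 for Ocln. Reg4-positive against whole organoid gave -0.41 to 0.23 for Ocln (0.048 without deep wells) and -0.40 to 0.55 for Tjp1, and -0.12 without whole organoid replicate 2. Lgr5-positive against whole organoid gave -0.17 to 0.28 for Cldn2. Between the stem cell sorts the range was -0.083 to 0.078 for Cldn15, -0.095 to 0.051 for Cldn3 and -0.073 to 0.59 for Tjp1, and thinning gave 0.081 for Cldn15, 1.77 for Cldn4 and 0.15 for Ocln. Whole organoid against YFP gave -0.046 to 0.39 for Cldn2, -0.37 to 0.26 for Ocln and -0.026 to 0.50 for Tjp1; thinning gave -0.21 for Cldn2 and -0.025 for Tjp1, and Ocln was 0.019 when plate IV of whole organoid replicate 2 lost its wells from 49 on. Enterocyte- against crypt-marker wells of whole organoids gave -0.058 to 0.20 for Ocln and -0.10 to 0.51 for Tjp1. The difference from YFP gave -0.16 to 0.30 for Cldn23 (-0.16 without secretory wells) and -0.20 to 0.14 for Cldn7, which was 0.065 and 0.062 with DESeq2 size factors and test. The causes were not tested. Depth limits Cldn4, with 3 to 10 counts in a YFP plate. It also limits Cldn23, with 4 and 11 counts in the Reg4-positive replicates and 5 in the Lgr5-positive organoid replicate.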
